A study of Mus musculus with 4 samples.

Results

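The members described here are 117 of the 50600 gene models in the deposited tables. They are small RNA models known by a provisional mouse symbol only, Gm2 followed by a digit from 2 to 6 and 3 more digits. Members were chosen by that symbol, by a model length of 60 to 330 nt, and by at least 200 expected counts summed over 4 libraries. Models with the length of Rnu6, Rnu5g, Rnu1a1 or Rnu2-10 (107, 116, 164 and 191 nt, the U6, U5, U1 and U2 snRNAs) were left out, and so was Gm24463. Of 3444 models with such symbols and lengths, 2779 had 0 counts, 548 had counts under the limit, and 117 reached it. The summed count therefore chose the members and is given below as a description. At the limit, Gm24119 (205.0 counts) and Gm22411 (200.61 counts) were just inside, and Gm25072 (199.28 counts) and Gm23116 (196.67 counts) were just outside. The 117 models carry 116 symbols, because Gm25820 names both a 127 nt and a 128 nt model.

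The libraries were made from C57BL/6 mouse testes at 8 weeks of age. RNA immunoprecipitation (RIP) isolates a protein together with the RNA bound to it, by an antibody coupled to beads, and an unspecific IgG in its place captures what sticks to the beads. The LARP7 RIP (an antibody to LARP7) and the IgG RIP (the control) had 2 libraries each, replicates 1 and 2 of both. No genetic change or drug is given for any group, and lysis in 150 mM NaCl, 4 h on beads, washing in 500 mM NaCl and size selection for 15 to 300 nt were common to both.

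Most short nuclear RNAs of these lengths fall into a few known families. Box C/D snoRNAs guide 2'-O-methylation and box H/ACA snoRNAs guide pseudouridylation of ribosomal and spliceosomal RNA, and both are usually cut out of introns of host genes, many of which encode ribosomal proteins or translation factors. Spliceosomal snRNAs and 5S rRNA have their own genes, with many near-identical copies and pseudogenes in the mouse genome. LARP7 is a La-related protein best known for binding the 3' end of 7SK RNA, and it also binds U6 snRNA and has been reported to bring box C/D snoRNAs to U6.

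A RefSeq gene table of the assembly GRCm38.p6 listed 52 of the 117 members by symbol. It named 26 as snoRNA, 9 as snRNA, 7 as rRNA, 5 as guide RNA, 3 as pseudogene, 1 as lncRNA and 1 as miRNA, and the other 65 have no entry there and stay unnamed. The files carry no coordinates, so positions below are those of the RefSeq table. The lncRNA entry, Gm26232, spans 2483 nt and is not the 166 nt model that was counted. The entry for Gm24148 gives sequence: the counted model is 80 nt long, whereas RefSeq lists under this symbol a 147 nt microRNA hairpin on the minus strand of chr1:86351981-86352127, within the span of Ncl, the gene of nucleolin. It is shown because Gm24148 is the member whose sequence the tables hold, and because its model length and listed length differ. Capitals mark UGAUGA and CUGA, searched on the RNA strand given; these are the letters known as box D (CUGA) and as the core of box C (UGAUGA) in C/D snoRNAs, and where they adjoin both are marked. In the mature sequence, mmu-miR-3535, capitals mark the seed (bases 2 to 8).
Gm24148 hairpin: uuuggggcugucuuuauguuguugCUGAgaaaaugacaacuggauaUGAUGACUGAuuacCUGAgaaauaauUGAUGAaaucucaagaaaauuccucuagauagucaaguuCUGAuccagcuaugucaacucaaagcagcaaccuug
mmu-miR-3535: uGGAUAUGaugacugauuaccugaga
UGAUGA occurred at 2 places and CUGA at 4, the first UGAUGA began at base 47 and the last CUGA at base 112, and the span from one through the other was 69 nt. Of 1005 mouse hairpins in the RefSeq table, 27 (2.69%) held UGAUGA, 432 (43.0%) held CUGA, and 2 (0.199%) had a UGAUGA and a later CUGA that spanned 60 nt or more. Gm24148 is itself among these 2, and the 60 nt limit lies just under its own span. The median hairpin was 79 nt long, against 147 nt for Gm24148, and a shorter hairpin has less room for such a span. The share therefore does not measure how unusual Gm24148 is. A match is a description of letters only. Gm24148 had 11727 and 3551 expected counts in the LARP7 libraries, against 14122 and 8975 in the IgG libraries. The groups overlapped, and the member did not pass the test (log2 fold change 0.61 ± 0.77, SE, edgeR adjusted p = 0.577).

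An expected count is RSEM's estimate of the reads from a model, in which a read that fits several models is split between them. The LARP7 libraries held 6918040 and 6502682 expected counts, against 6994514 and 4411271 in the IgG libraries. Fold changes below are the LARP7 RIP over the IgG RIP in edgeR's quasi-likelihood test over 12234 genes, CPM values are counts scaled to a fixed library total after TMM, and adjusted p-values are Benjamini-Hochberg values over all genes tested. TMM scaling sets libraries so that most genes are level. Its scaling factors came to 0.558 and 0.673 with LARP7, against 1.85 and 1.44 with IgG. Scaling by library totals in place of TMM lowered the median over all genes by 1.42 on the log2 scale, to -1.47, so the direction of a member with a TMM-scaled log2 fold change between 0 and about that size depends on the scaling. The series design calls the 2 libraries of a group biological replicates, but no label ties them to separate animals, so p-values measure the spread between these libraries. Counts of replicates differed by more than sampling noise (chi-square over its degrees of freedom 124 between the LARP7 libraries and 53.4 between the IgG libraries). All 10 germ cell markers were above 0, with a summed level of 678 and 418 CPM in the LARP7 libraries against 1455 and 1345 CPM in the IgG libraries. The Sertoli markers summed to 41.1 and 30.8 CPM in the LARP7 libraries, against 69.4 and 61.1 CPM in the IgG libraries. For the Leydig markers the sums were 49.4 and 42.5 CPM, against 46.8 and 49.5 CPM, and for blood markers 3.64 and 1.38 CPM, against 2.73 and 2.37 CPM. Of 5 epididymis markers, Adam7, Crisp1, Lcn5 and Lcn8 were at 0 in every library. The part of such differences in the members' values was not tested. The libraries are immunoprecipitates of bulk tissue, so marker levels cannot tell apart capture, the number of cells of a type and the RNA per cell.

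The members held 4255630 expected counts over the 4 libraries, 17.1% of all counts. They made up 25.1% and 19.4% of the counts in the LARP7 libraries, against 9.42% and 13.5% in the IgG libraries. Both LARP7 shares were above both IgG shares, and 2 libraries against 2 cannot reach significance in an exact permutation test (smallest two-sided p = 0.333). Abundance was very uneven. Gm26202 and Gm23130 together held 32.8% of the members' counts and the 10 most abundant held 68.7%, while 50 members had under 1000 counts and the median member had 3441.59. Because a count grows with length, levels are set side by side per length: as the authors' TPM, which divides by effective length and scales each library to one total. The members held 47.0% and 47.3% of the TPM total in the LARP7 libraries, against 43.4% and 45.5% in the IgG libraries. For the shortest members TPM rests on a small effective length, the number of start positions left after the fragment length is allowed for: 9.47 to 13.7 nt for the 65 nt model Gm26202, with mean fragments of 61.8 to 65.8 nt.

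**Figure D1:**
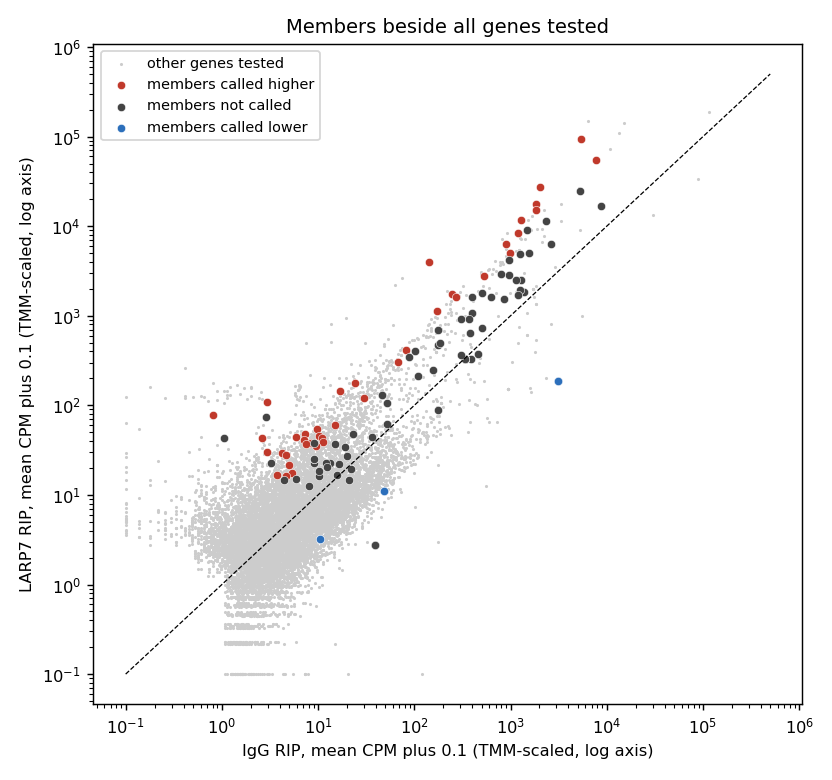
Mean CPM plus 0.1 of every gene tested in the LARP7 RIP (vertical, log axis) and the IgG RIP (horizontal, log axis), TMM-scaled, with 117 members in colour by call and the diagonal of equal levels dashed. The members reach the top of the range, 40 lie above the diagonal as called higher and 6 below it as called lower (14.5% and 9.69% of all genes). Scaled by library totals the median of all genes would sit lower by 1.42 on the log2 scale. Then 20 members would be called higher and 19 lower (3.95% and 47.1% of all genes).

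With TMM scaling 40 of the 117 members were higher in the LARP7 RIP and 6 were lower (edgeR adjusted p under 0.05), where 14.5% of all genes tested were called higher and 9.69% lower. That is 34.2% of the members higher and 5.13% lower, and 71 did not pass the test. The median log2 fold change of the members was 1.58, against -0.05 over all genes tested. Scaled by library totals, 20 members were called higher and 19 lower, where 3.95% of all genes were called higher and 47.1% lower, and the medians were 0.27 for the members and -1.47 for all genes. Some of the 19 have identical counts, and with each such set counted once 11 were lower. All 40 members called higher with TMM kept a positive sign with library totals, and 18 of them were called there too. All 6 called lower were called lower with both. Of the members not called, 31 had a positive fold change with TMM and a negative one with library totals. In TMM-scaled CPM both LARP7 libraries lay above both IgG libraries for 83 members and below them for 9 (32.9% and 35.6% of all genes tested), and in shares of the library total for 34 and 30 members (9.7% and 63.9% of all genes).

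The limit on summed counts lets in models that are abundant in one group only. Of the members, 14 had under 100 counts over both IgG libraries, and 10 of these were called higher. A further 6 had under 100 counts over both LARP7 libraries, and 4 of these were called lower. Of the 97 members with at least 100 counts in each group, 30 were called higher and 2 lower with TMM scaling. The share of all genes called at this cut was not computed, so these counts have no like background.

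**Figure D2:**
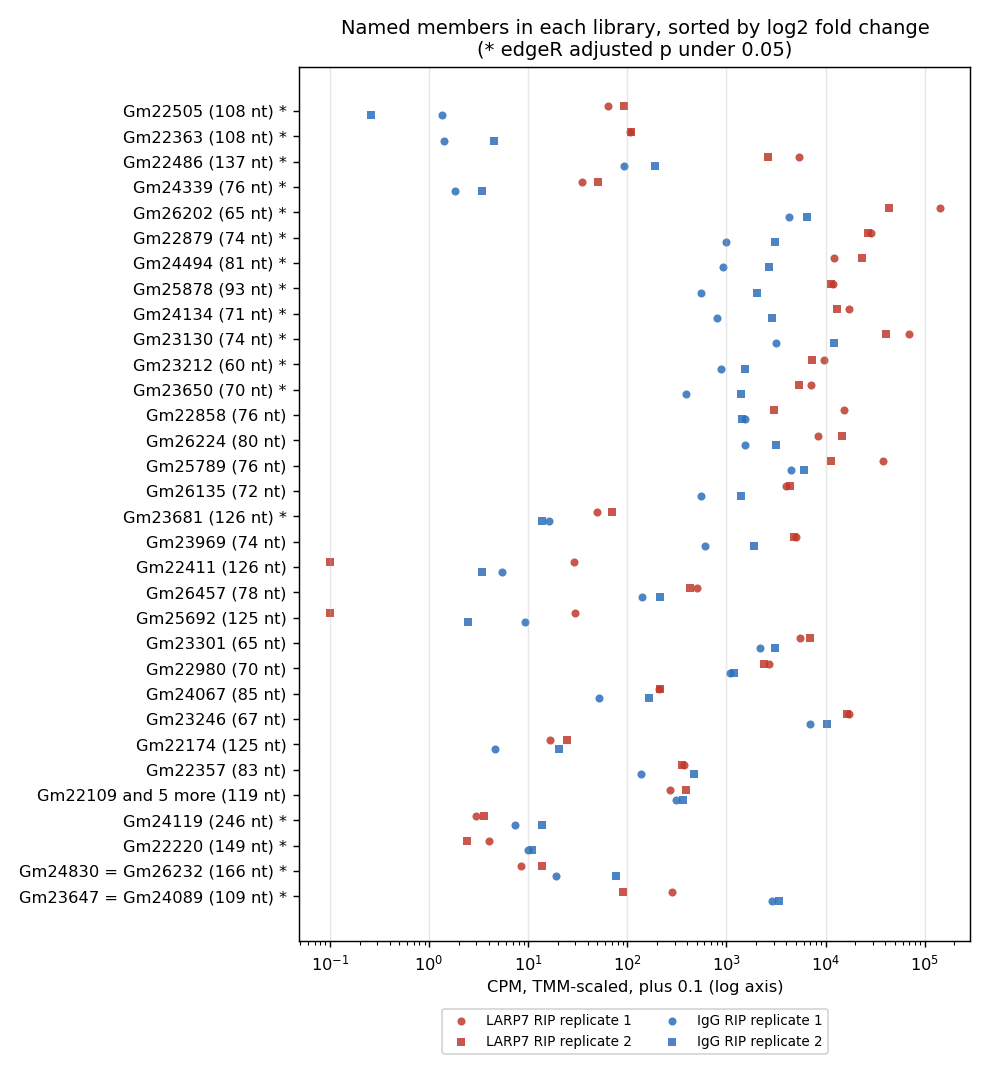
TMM-scaled CPM plus 0.1 (log axis) of the members named by rule in each of the 4 libraries, sorted by log2 fold change, LARP7 RIP in red and IgG RIP in blue, with asterisks for an edgeR adjusted p under 0.05. Gm22505 and Gm22363, snRNA models of 108 nt, stand at the top with 63.9 CPM or more in each LARP7 library, and Gm23647 and Gm24089 at the bottom with 2893 and 3379 CPM in the IgG libraries.

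Of the 12 most abundant members, all of 60 to 93 nt, 7 were called higher with TMM scaling and 5 did not pass the test. With that scaling 14.5% of all genes tested were called higher and 9.69% lower. Gm26202 (ENSMUSG00000064844.1, 65 nt, RefSeq snoRNA, chr18:75001880-75001944) lies within the span of Rpl17, which encodes a protein of the large ribosomal subunit. It had 549056 and 192435 expected counts in the LARP7 libraries, against 54175 and 41176 in the IgG libraries, which is 7.94% and 2.96% of the library against 0.775% and 0.933%. Both LARP7 libraries were above both IgG libraries on every scale given, and replicate 1 was the highest. The mean was 93413 ± 69652 CPM in the LARP7 RIP and 5373 ± 1614 CPM in the IgG RIP (SD, n = 2 each), a log2 fold change of 4.12 ± 0.99 (SE, edgeR adjusted p = 0.0175). With library totals it was 2.67 (edgeR adjusted p = 0.00218). The call rested on both LARP7 libraries: without replicate 1 the log2 fold change was 3.02 (edgeR adjusted p = 0.178), and without replicate 2 it was 4.73 (edgeR adjusted p = 0.126). By TPM Gm26202 was 2nd and 3rd among all models in the LARP7 libraries, against 4th and 5th in the IgG libraries.

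Gm23301, another 65 nt RefSeq snoRNA (chr18:75001455-75001519), lies within the same gene. It had 21251 and 30585 counts in the LARP7 libraries, against 28086 and 19616 in the IgG libraries. The groups overlapped in counts, and the log2 fold change did not pass the test (1.24 ± 0.72, SE, edgeR adjusted p = 0.219; -0.13 with library totals). The ratio of Gm26202 to Gm23301 within a library needs no scaling. It was 25.8 and 6.29 in the LARP7 libraries, against 1.93 and 2.10 in the IgG libraries, a difference of 2.66 on the log2 scale. Both LARP7 ratios were above both IgG ratios, and the exact two-sided permutation p was 0.333, the smallest that 2 against 2 libraries can give. Rpl17 itself had 119.87 counts over the 4 libraries, against 936380 in its 2 members, and its log2 fold change was -0.02 ± 0.54 (SE, edgeR adjusted p = 0.979).

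Gm23130 (ENSMUSG00000077440.1, 74 nt, not listed in the RefSeq table) had 266344 and 177244 counts in the LARP7 libraries, against 40716 and 76532 in the IgG libraries. The groups did not overlap, and in proportion to their level the IgG libraries differed from each other more than the LARP7 libraries did. Its mean was 54941 ± 20174 CPM in the LARP7 RIP and 7644 ± 6312 CPM in the IgG RIP (SD, n = 2 each), a log2 fold change of 2.85 ± 0.95 (SE, edgeR adjusted p = 0.0495). This call was at the edge of the threshold. Of the count-based settings, it was lost with library totals (1.5, edgeR adjusted p = 0.0766), with identical models merged (2.85, 0.0537), without LARP7 RIP replicate 1 (2.39, 0.308), without LARP7 RIP replicate 2 (3.18, 0.275) and without IgG RIP replicate 1 (2.19, 0.0589).

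Gm22879 (74 nt, not listed) had 109468 and 117550 counts in the LARP7 libraries, against 12727 and 19583 in the IgG libraries. The groups did not overlap, and the log2 fold change was 3.76 ± 0.91 (SE, edgeR adjusted p = 0.0179; 2.43 with library totals). Gm24494 (81 nt, RefSeq snoRNA, chr3:153911610-153911690, within Rabggtb, a subunit of the enzyme that prenylates Rab proteins) had 47185 and 102519 counts in the LARP7 libraries, against 11879 and 17155 in the IgG libraries. The groups did not overlap, and the log2 fold change was 3.30 ± 0.90 (SE, edgeR adjusted p = 0.0259). The other called members among the 12 were not listed in RefSeq: Gm25878 (93 nt) at 3.18, Gm24134 (71 nt) at 3.05 and Gm23212 (60 nt, the shortest member) at 2.81, with edgeR adjusted p-values of 0.0272, 0.0320 and 0.0272. Of the 7, Gm26202, Gm22879, Gm24494, Gm25878 and Gm24134 were also called with library totals, and each of the 7 lost its call when either LARP7 library was left out.

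The 5 not called were Gm22858 (76 nt snoRNA within Wdr43, 2.62 ± 0.90), Gm26224 (80 nt, 2.30 ± 0.80), Gm25789 (76 nt, 2.23 ± 0.87), Gm23301 and Gm23246 (67 nt, 0.96 ± 0.75), as log2 fold changes ± SE with edgeR adjusted p-values from 0.0559 to 0.367. Gm23246, the third by counts, was placed differently by the 2 scalings. It had 67103 and 71224 counts in the LARP7 libraries, against 89618 and 65716 in the IgG libraries. The raw counts overlapped, while CPM did not (17436 and 16345 CPM in the LARP7 libraries against 7000 and 10396 CPM in the IgG libraries), and with library totals the log2 fold change was -0.43.

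The 26 members that RefSeq calls snoRNA ranged from 65 to 246 nt. With TMM scaling 11 of them were higher and 1 was lower, with a median log2 fold change of 1.99 (0.65 with library totals, with 5 higher and 1 lower). For this and the classes below, the background is 14.5% of all genes called higher and 9.69% lower with TMM. With library totals it is 3.95% and 47.1%. At the same limit of 200 counts, models named as box C/D snoRNAs (Snord) gave 28 higher and 0 lower of 73, with a median of 1.70, and those named as H/ACA snoRNAs (Snora) gave 4 higher and 0 lower of 5, with a median of 1.79 (0.35 and 0.40 with library totals). Without that limit the Snora models gave 7 higher and 2 lower of 24, with a median of 1.01 (-0.31 with library totals). Of the 65 unlisted members tested, 25 were higher and 1 was lower, with a median of 1.84 (0.47 with library totals). Gm24339 (76 nt, RefSeq snoRNA, chr9:15326464-15326539, within Cep295, which encodes a centrosomal protein) was the snoRNA with the smallest adjusted p. It had 135 and 220 counts in the LARP7 libraries, against 22 and 21 in the IgG libraries. None of its reads were shared with another model, the groups lay far apart, and the log2 fold change was 4.13 ± 0.49 (SE, edgeR adjusted p = 0.00223; 2.76 with library totals). Its IgG counts alone were under the limit of 200, so it became a member only with its LARP7 counts. The choice of members favours such a call. Cep295 was not called (-0.42 ± 0.39, SE, edgeR adjusted p = 0.441).

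The one snoRNA called lower was Gm24119 (246 nt, chr10:91118291-91118536, within Slc25a3, the mitochondrial phosphate carrier). It had 11.0 and 15.0 counts in the LARP7 libraries, against 92.0 and 87.0 in the IgG libraries. The groups did not overlap, and the log2 fold change was -1.71 ± 0.53 (SE, edgeR adjusted p = 0.0398), a call lost without LARP7 RIP replicate 1 (0.128), without LARP7 RIP replicate 2 (0.131), without IgG RIP replicate 2 (0.233) and with DESeq2 (0.0844). It is also among the members just inside the count limit, and its LARP7 counts alone were under that limit.

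Other members named by rule were the most abundant of their length or those with the least sharing of reads. Gm23650 (70 nt, not listed) had 27303 and 23581 counts in the LARP7 libraries, against 5012 and 8856 in the IgG libraries. The groups did not overlap, and it was called higher (2.80 ± 0.84, SE, edgeR adjusted p = 0.0358). It was not called with library totals (1.47, edgeR adjusted p = 0.0609), without LARP7 RIP replicate 1 (0.170), without LARP7 RIP replicate 2 (0.168) or without IgG RIP replicate 1 (0.0594). Gm23681 (126 nt, not listed) had 190.57 and 303 counts in the LARP7 libraries, against 206.77 and 86.44 in the IgG libraries. Raw counts overlapped but CPM did not, and it was called higher with TMM (1.997 ± 0.44, SE, edgeR adjusted p = 0.0137). It was not called with library totals (0.59, edgeR adjusted p = 0.334) or without IgG RIP replicate 2 (0.0559). Gm23969 (74 nt, chr2:26911261-26911334, within Rpl7a, a ribosomal protein gene) and Gm22980 (70 nt) are RefSeq snoRNAs without shared reads. Gm23969 had 19482 and 20836 counts in the LARP7 libraries, against 7810 and 12028 in the IgG libraries. Gm22980 had 10230 and 10374 counts in the LARP7 libraries, against 13855 and 7608 in the IgG libraries. Neither passed the test (1.97 ± 0.79 and 1.14 ± 0.67, SE, edgeR adjusted p = 0.0895 and 0.227), and Gm22980 was at -0.27 with library totals. Gm26135 (2.12), Gm26457 (1.40), Gm24067 (0.96), Gm22174 (0.75) and Gm22357 (0.26) were not called either, as log2 fold changes with TMM scaling.

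By length, members of 70 to 79 nt gave 14 higher and 0 lower of 33 with TMM scaling, with a median log2 fold change of 2.01. Over all genes tested, 14.5% were called higher and 9.69% lower with this scaling. The 10 members of 60 to 69 nt gave 3 higher and 0 lower (median 1.40), and the 21 of 80 to 99 nt gave 5 higher and 0 lower (median 1.51). The 41 members of 100 to 149 nt were mixed, with 15 higher and 3 lower (median 0.78), and so were the 12 of 150 to 330 nt, with 3 higher and 3 lower (median 0.53). With library totals the medians of the 5 length bands, shortest first, were 0.14, 0.73, 0.24, -0.54 and -1.03. In the same order, 1, 6, 2, 7 and 4 members were called higher with library totals and 0, 0, 0, 13 and 6 lower. The 13 and 6 include models with identical counts: 6 members of 119 nt and the pairs Gm23647 with Gm24089, Gm24830 with Gm26232 and Gm22614 with Gm25890. The 41 members of 100 to 149 nt held 35 distinct sets of counts, and the 12 of 150 to 330 nt held 10. That scaling called 3.95% of all genes higher and 47.1% lower. Across the 117 members Spearman's rho between length and log2 fold change was -0.218. This is a description over models of the same 4 libraries, some of which share reads or have identical counts, and it carries no test.

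**Figure D3:**
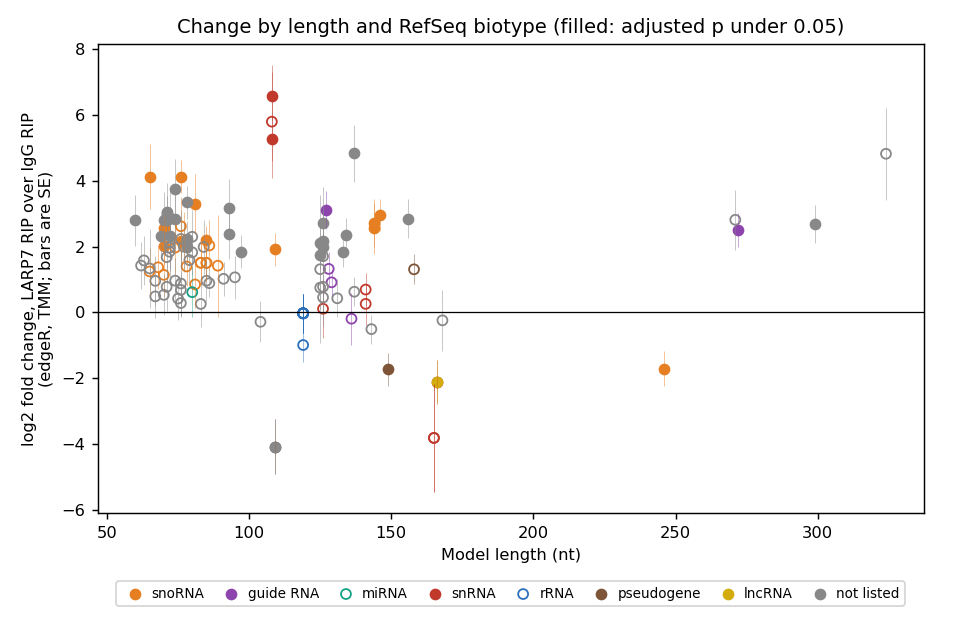
Log2 fold change of each member (LARP7 RIP over IgG RIP, edgeR with TMM scaling, bars are SE) against model length in nt, coloured by RefSeq biotype and filled where the adjusted p was under 0.05. All 64 members of 60 to 99 nt lie above 0 with TMM scaling (45 of them with library totals), and each of the 6 called lower is at least 109 nt long.

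RefSeq calls 5 members guide RNA, a class of RNAs that direct changes to other RNAs. With TMM scaling 2 of them were higher and 0 lower (median log2 fold change 1.32, and -0.12 with library totals), where 14.5% of all genes tested were called higher and 9.69% lower. Gm25820 is listed within 2810403A07Rik (Khdc4 in RefSeq), and its single RefSeq entry was applied by symbol to both of its models. Its 127 nt model had 476.16 and 726.96 counts in the LARP7 libraries, against 139.46 and 144.06 in the IgG libraries. Its 128 nt model had 61.70 and 128.59 counts in the LARP7 libraries, against 162.11 and 33.77 in the IgG libraries. The first had a log2 fold change of 3.12 ± 0.58 and was called, the second 1.32 ± 0.50 and was not (SE, edgeR adjusted p = 0.00791 and 0.0770). The posterior SD reached 0.26 and 0.35 of the count, so the split of their reads with other models is uncertain. Whether the 2 models share reads with each other was not looked up. Gm22486 (137 nt, not listed) was the most abundant member called higher above 100 nt. It had 20601 and 11580.0 counts in the LARP7 libraries, against 1187 and 1189 in the IgG libraries. The groups lay far apart, and the log2 fold change of 4.83 ± 0.86 (SE, edgeR adjusted p = 0.00691; 3.43 with library totals) was called without each library in turn.

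The largest fold changes were in snRNA models of 108 nt, of which there were 3. These are 1 nt longer than the 107 nt models that the choice of members leaves out, and RefSeq gives them no family name. Gm22505 (chr3:99707740-99707847) had 246.12 and 404.78 counts in the LARP7 libraries, against 16.18 and 1.07 in the IgG libraries, and a log2 fold change of 6.58 ± 0.74 (SE, edgeR adjusted p = 0.00223). Gm22363 (chr6:42775573-42775680) had 407.92 and 479.49 counts in the LARP7 libraries, against 17.01 and 28.49 in the IgG libraries, and a log2 fold change of 5.28 ± 0.67 (SE, edgeR adjusted p = 0.00251). Both LARP7 libraries were far above both IgG libraries in each of them, and both calls were also made with library totals (5.13 and 3.94) and without each library in turn. Gm23924 (chr6:74451797-74451904) had 68.21 and 298.76 counts in the LARP7 libraries, against 0 and 11.7 in the IgG libraries, and was not called (5.80 ± 1.71, SE, edgeR adjusted p = 0.0887). These counts are split from shared reads: the largest posterior SD was 9.09 times the count for Gm22505, 0.532 for Gm22363 and 0.344 for Gm23924. The other 6 members that RefSeq calls snRNA gave 0 higher and 1 lower with TMM, where 14.5% of all genes were called higher and 9.69% lower.

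Members at 0 counts in both libraries of a group were not found. Gm25692 (125 nt) had 114.61 and 0 counts in the LARP7 libraries, against 118.34 and 14.56 in the IgG libraries, and Gm22411 (126 nt) had 111.29 and 0 counts in the LARP7 libraries, against 68.02 and 21.30 in the IgG libraries. Neither passed the test (1.31 ± 2.25 and 1.70 ± 2.11, SE, edgeR adjusted p = 0.715 and 0.611). Without LARP7 RIP replicate 1 their log2 fold changes were -8.54 and -8.10, which depend on the prior count, since the remaining LARP7 library had 0 counts.

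The 7 members that RefSeq calls rRNA are all 119 nt long and lie among 5S rRNA genes on chromosome 8. The group of Gm22109, Gm22291, Gm23284, Gm25018, Gm25212 and Gm26391 had identical counts, shared also by Rn5s and 25 n-R5s models, so that 32 models have one value. Each had 1048 and 1711 counts in the LARP7 libraries, against 4006 and 2309 in the IgG libraries. The groups overlapped in CPM, and the log2 fold change was -0.03 ± 0.59 (SE, edgeR adjusted p = 0.974), while with library totals it was -1.41 (edgeR adjusted p = 0.0493). The seventh, Gm24312, shared its counts with 3 n-R5s models and was not called with TMM (-0.99 ± 0.52, SE, edgeR adjusted p = 0.178), although both LARP7 libraries were below both IgG libraries in CPM. With library totals it was called lower (-2.39, edgeR adjusted p = 0.000478).

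The most strongly lower members were Gm23647 and Gm24089, both of 109 nt with identical counts in all libraries. Each had 1083 and 392.26 counts in the LARP7 libraries, against 37035 and 21362 in the IgG libraries, and both models together made up 0.0313% and 0.0121% of the LARP7 libraries, against 1.06% and 0.969% of the IgG libraries. Both IgG libraries were far above both LARP7 libraries, and the log2 fold change was -4.08 ± 0.84 (SE, edgeR adjusted p = 0.0106; -5.55 with library totals). Without LARP7 RIP replicate 2 it did not pass the test (-3.48, edgeR adjusted p = 0.153). RefSeq lists Gm23647 as a pseudogene at chr8:123623637-123623745, 1590 bp from the nearest of 48 rRNA genes within 100 kb, which run from 123538784 to 123622046. Gm24089 has no entry there.

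The other members called lower were Gm24830 and Gm26232 (166 nt), which shared identical counts with Rnu1b6, a U1 snRNA gene, and Gm22220 (149 nt, RefSeq pseudogene, chr12:54239238-54239386). Gm24830 and Gm26232 each had 31.67 and 59.57 counts in the LARP7 libraries, against 244.21 and 486.61 in the IgG libraries, with a log2 fold change of -2.11 ± 0.66 (SE, edgeR adjusted p = 0.0490; -3.39 with library totals). That call was lost without LARP7 RIP replicate 1 (0.291), without LARP7 RIP replicate 2 (0.318), without IgG RIP replicate 2 (0.420) and with posterior mean counts (0.0568 for Gm24830 and 0.0638 for Gm26232). Gm22220 had 14.82 and 10.13 counts in the LARP7 libraries, against 126.15 and 67.83 in the IgG libraries, with a log2 fold change of -1.74 ± 0.51 (SE, edgeR adjusted p = 0.0325), lost without LARP7 RIP replicate 2 (0.197), without IgG RIP replicate 2 (0.0632) and with DESeq2 (0.0669). The groups did not overlap in any of the 3. Gm22614 and Gm25890, snRNA models of 165 nt with identical counts of 0 and 22.63 in the LARP7 libraries against 167.67 and 406.38 in the IgG libraries, were not called (-3.81 ± 1.65, SE, edgeR adjusted p = 0.187).

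How far a count rests on shared reads can be read from the posterior SD that RSEM gives, the spread of a count over the ways in which reads could be split, divided by the count and taken at its largest over the 4 libraries. For 23 members (19.7%) it was 0 in every library, so that no read was split, against 35.1% of 4600 other models of 200 counts or more. For 42 members (35.9%) it exceeded 10% of the count, against 11.5% of the other models. These 42 held 5.82% of the members' counts, so that most of the reads in the members were in models with little sharing. Among 40 members called higher, 13 were over 10%, and among 6 called lower, 5 were. The most abundant members were hardly affected: the ratio was 2.3e-05 for Gm26202 and 1.3e-05 for Gm23130. By biotype, 17 of 26 snoRNA members had a posterior SD of 0, while all 7 rRNA members and 6 of 9 snRNA members were over 10%.

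Altogether 19 members in 9 groups had counts identical to another model in all 4 libraries. Beside the groups above, Gm26135 (72 nt) had the counts of Snord50b and Gm24253 (76 nt) those of Snord1c, both named box C/D snoRNAs. The pairs Gm23711 with Gm24091 (83 nt) and Gm22192 with Gm25632 (85 nt, within Prrc2b) shared theirs with each other. Counting each set of identical counts once left 107 distinct members, of which 40 were higher and 4 lower with TMM scaling (14.5% and 9.69% of all genes). With library totals 20 of the 107 were higher and 11 lower (3.95% and 47.1% of all genes). Counted as separate models, 19 members were lower there.

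**Figure D4:**
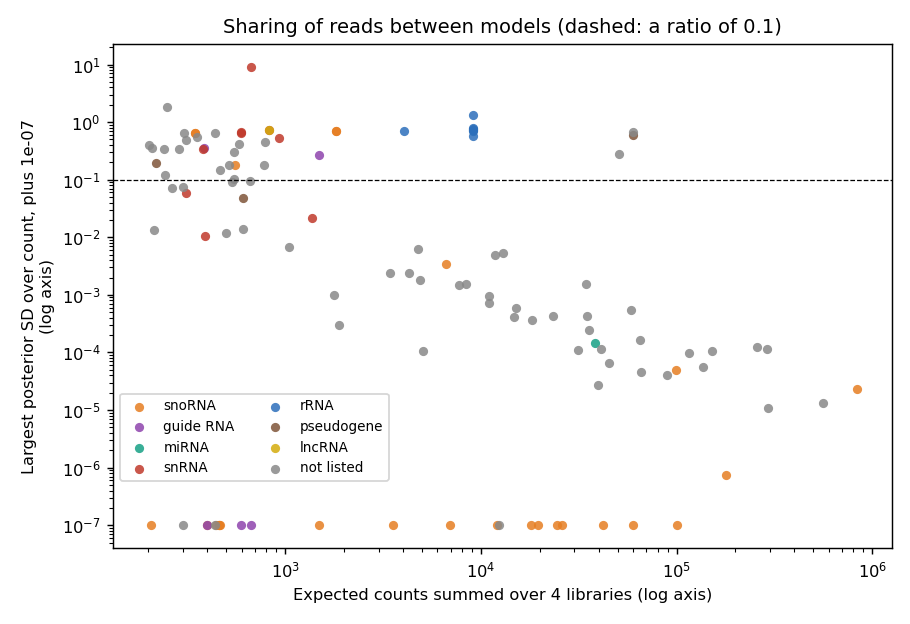
Largest posterior SD over count in any library, plus 1e-07 (log axis), against the expected counts of each member summed over 4 libraries (log axis), coloured by RefSeq biotype, with a dashed line at 0.1. The 23 members at the bottom shared no reads, and 42 lie above the line, including all 7 rRNA members.

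By RefSeq position 34 members lay within the span of a longer gene. The files hold counts for 27 of these genes, but not for every one. Among the 27 are Rpl17, Rpl7a and Rpl4 (ribosomal proteins), Eif4a1 (a translation initiation helicase), Eef1b2 (an elongation factor subunit) and Ncl. The RefSeq table used gives spans, not exons or introns, and whether a member lies in an intron was not looked up. Of the 26 surrounding genes that could be tested, 8 were called higher and 2 lower with TMM scaling, with a median log2 fold change of 0.54. The shares over all genes tested were 14.5% higher and 9.69% lower. The log2 fold change was above that of the surrounding gene for 25 of 32 members, with a median difference of 0.99, a comparison in which scaling cancels. Pearson's r between the log2 fold changes of members and surrounding genes was 0.175 over 32 members, which share the same libraries.

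Ubap2, a ubiquitin-associated protein gene, was called lower (-2.28 ± 0.41, SE, edgeR adjusted p = 0.00729), and its members Gm24837 (81 nt) and Gm22888 (77 nt) had log2 fold changes of 0.85 ± 0.73 and 2.14 ± 0.91, neither called. Rpl4 also holds more than one member. Within it, Gm22571 (70 nt) had 161 and 173 counts in the LARP7 libraries, against 70 and 54 in the IgG libraries. Gm23344 (68 nt) had 7625 and 5512 counts in the LARP7 libraries, against 6741 and 4611 in the IgG libraries. Gm22571 was called (2.55 ± 0.42, SE, edgeR adjusted p = 0.00527; 1.16 with library totals) and Gm23344 was not (1.37 ± 0.67, SE, edgeR adjusted p = 0.153; -0.05 with library totals), and their difference was not tested.

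**Figure D5:**
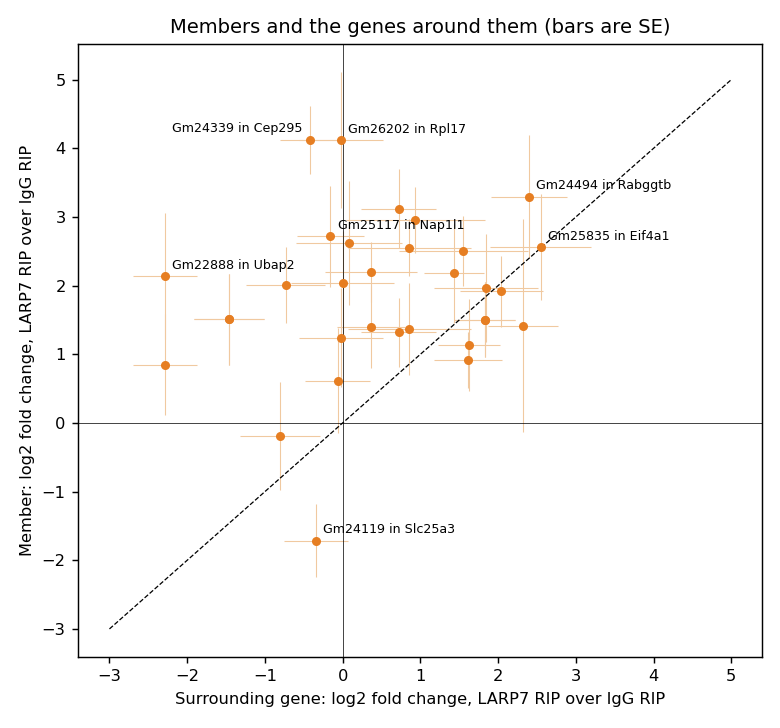
Log2 fold change of 32 members (vertical) against that of the gene around them (horizontal), LARP7 RIP over IgG RIP with TMM scaling, bars are SE, with the line of equal change dashed. Most points, 25 of 32, lie above the line, among them Gm26202 in Rpl17 at 4.12 against -0.02.

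How many members were called differed between settings, and is given here with the share of all genes called in each. Without LARP7 RIP replicate 1, 22 members were higher and 5 lower (9.7% and 6.29% of all genes), and without LARP7 RIP replicate 2, 19 were higher and 0 lower (4.62% and 1.38% of all genes). In the second of these fits 5 members were lower at an unadjusted p under 0.05. Without IgG RIP replicate 1, 30 members were higher and 8 lower (12.2% and 6.28% of all genes), and without IgG RIP replicate 2, 67 were higher and 4 lower (15.2% and 6.32% of all genes). In these fits the lone library of a group is assumed to vary like the other group. DESeq2 called 61 members higher and 4 lower (14.0% and 5.96% of all genes), including all 40 called higher by edgeR. The replicate number as a block gave 64 higher and 8 lower (17.1% and 11.5% of all genes), no filter gave 53 and 6 (7.56% and 5.13%), posterior mean counts 47 and 5 (15.9% and 11.0%), and merged models 38 and 6 (14.3% and 9.53%).

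TPM turned the members' median. With limma on log2(TPM + 1), 0 members were higher and 2 lower (0.0409% and 0.155% of all genes), with 6 and 25 at an unadjusted p under 0.05, and the median log2 difference was -0.74 over the members against -0.29 over all genes. On log2(TPM + 0.1), 5 were higher and 26 lower (0.907% and 55.8% of all genes), and the medians were -0.78 and -1.25. TPM scales each library to a common total of counts divided by effective length, which is not the same as a total of counts. The effective length also differs between libraries for the shortest members. The cause of the turn was not tested.

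In all, 10 members were called higher in the TMM fit and in every other count-based setting run, leaving out each library in turn and library totals included: Gm22486, Gm22363, Gm22505, Gm24339, Gm22571, Gm24336, Gm25197, Gm25472, Gm24044 and the 127 nt model of Gm25820. Gm26202 and Gm23130 are not among them. For 8 of the 10 the IgG counts alone were under the limit of 200, as they were for 20 of the 40 called higher, so these members entered the list only with their LARP7 counts and the choice of members favours such calls. Likewise 4 of the 6 called lower had LARP7 counts under 200. Of the 10, Gm24336 (146 nt, RefSeq snoRNA, within Cwf19l1) had 162 and 203 counts in the LARP7 libraries, against 46.0 and 51.0 in the IgG libraries, no shared reads and a log2 fold change of 2.95 ± 0.48 (SE, edgeR adjusted p = 0.00507; 1.60 with library totals). None of the 6 members called lower kept the call in every such setting.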

How the data were processed

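RNA from LARP7 and IgG immunoprecipitates of mouse testis was measured in 4 small RNA libraries. The submitters' processing notes name cutadapt, Bowtie2, RSEM and the build mm10, and their settings and versions are not given here in the sources used. Per the file headers, the deposited tables hold for each gene model the expected count (estimated reads, with multiply mapping reads split between models), a posterior mean count and its posterior SD, the length and effective length, and the authors' TPM, which divides by effective length and scales each library to one total. How reads were assigned to strands is not given, so overlapping and antisense genes could share reads.

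Expected counts were rounded to whole numbers and tested for a difference between antibodies with edgeR 4.0.16 (R 4.3.3) by its robust quasi-likelihood F test, two-sided, after filterByExpr and TMM scaling, and p-values over 12234 genes were adjusted by Benjamini-Hochberg, with 0.05 as the limit of a call. All 117 members passed the filter. The SE of a log2 fold change was taken as its size over the root of F, and the error of a mean CPM is the SD over 2 libraries. More depth did not always mean a smaller error: the SE was 0.99 for Gm26202, with 836842 counts, and 0.49 for Gm24339, with 398 counts. Alternatives were library totals, DESeq2 1.42.0, no filter, a replicate block, leaving out each library, posterior mean counts, merging models with identical shared counts, and limma 3.58.1 on log2(TPM + 1) and log2(TPM + 0.1). The count test was checked on simulated data.

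Biotypes, positions and the hairpin come from RefSeq tables of GRCm38.p6, matched by symbol, and 11 listed entries differ in length from the counted model. Sequences of the other members were not used here. The members and lists were chosen with earlier results of these data known. Members were named by rule: Gm26202 and Gm23130, the 12 with the most counts, the 6 highest and 6 lowest fold changes among called members, the most abundant member of each length shared by 3 or more, members at 0 in a group, the 3 highest and 3 lowest in posterior SD over count, and those beside the count limit. Gm24148, Gm23924, Gm24312, Gm22614, Gm25890, Gm25820, Gm24336, Gm25197, Gm25472, Gm24044, Gm24253 and the members Gm23711 and Gm24091 and those within Ubap2, Prrc2b and Rpl4 were named after their values were seen. Some genes around members are not reported here.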

Additional observations from a re-analysis of the deposited data

How the results depend on the processing

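Calls depended on the scaling and on single libraries. With library totals 20 members were higher and 19 lower (483 and 5759 of all genes), with a median of 0.27, and log2 fold changes turned for Gm23246 (-0.43), Gm23301 (-0.13), Gm22980 (-0.27), Gm22357 (-1.06), Gm24067 (-0.36), Gm22174 (-0.54) and Gm25692 (-0.31). Leaving out each library in turn gave 19 to 67 members higher, 0 to 8 lower and a median of 1.27 to 2.44 (660 to 2138 of all genes higher, 197 to 922 lower). Without LARP7 RIP replicate 2 none of the 6 lower calls and 17 of the 40 higher calls were kept, and without LARP7 RIP replicate 1 3 and 22 were. Leaving out a library gave log2 fold changes of -0.31 to 0.20 for Gm22109, -0.38 to 1.48 for Gm22357, -8.54 to 2.66 for Gm25692 and -8.10 to 2.72 for Gm22411. With DESeq2 61 members were higher and 4 lower (729 of all genes lower), and Gm22109 was at 0.035. With the replicate number as a block 64 members were higher and 8 lower. The labels state no pairing, and differences between replicates correlated between LARP7 and IgG at r = 0.200 over 12234 genes and 0.491 over the 117 members. With 2 pairs and no label on a shared source, the numbers were not taken as pairs. TPM scales each library to a common total of counts divided by effective length. On TPM, limma on log2(TPM + 1) called 0 members higher and 2 lower (5 and 19 of all genes), with a median of -0.74. On log2(TPM + 0.1) it called 5 and 26 (111 and 6823 of all genes), with a median of -0.78. Signs turned on TPM, given with + 1 and where different with + 0.1, for Gm23246 (-1.43), Gm25789 (-0.49), Gm26224 (-0.20), Gm22858 (-0.31), Gm23301 (-1.15), Gm23969 (-0.28), Gm26135 (-0.18), Gm22980 (-1.29), Gm22357 (-2.02), Gm26457 (-1.09), Gm24067 (-1.35), Gm23681 (-0.60 and -0.63), Gm22174 (-1.39 and -1.53), Gm25692 (-1.90 and -3.45) and Gm22411 (-1.75 and -3.33). With no filter, posterior mean counts or merged models, counts of calls stayed within 1.5 times. Single named members kept sign and side of the threshold in 253 comparisons with an alternative, lost the call in 60, gained it in 28 and turned sign in 43. The causes were not tested. With 2 libraries a group, members with more counts did not always have the smaller SE, and shared reads limit 42 of the 117 members.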
